A study of Homo sapiens with 2 samples.

Results

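Globin-expressing cells were examined among nonadherent human blood cells from day 5 of the endothelial-to-hematopoietic transition (EHT), the step in which hemogenic endothelium releases blood cells. They were chosen by their own globin counts. A cell was a member if it held at least 20 unique molecular identifiers (UMIs, each standing for 1 captured RNA molecule) of *HBG1*, *HBG2*, *HBE1*, *HBZ*, *HBA1* and *HBA2* together and fewer than 10 UMIs of the platelet chemokines *PF4* and *PPBP*. Of 7550 kept cells, 210 were members, or 2.78% (exact Clopper-Pearson 95% interval 2.42 to 3.18%). The levels of those 8 genes in members are therefore a description and not a finding.

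The cells came from iPS11, an established human induced pluripotent stem cell line, from which CD34+ cells were made and placed in EHT culture. There were 4 plate surfaces, namely uncoated plastic, VCAM1 (an adhesion molecule), DLL4 (a notch ligand) and DLL4+VCAM1, and the 3 wells of each were pooled and stained with 1 hashtag antibody. All pools were mixed into 1 library. The sources used here do not say which of the hashtags 0252, 0253, 0254 and 0255 stained which surface, so hashtags were compared by number and no surface is named. One cell line, 1 harvest and 1 library give no replicates, so no p-value was computed, and the intervals given are exact 95% Poisson intervals for levels and Clopper-Pearson intervals for shares, which cover counting error only. Levels are in counts per 1000000 UMIs (CPM) of the cells of a group summed together. A gene is called higher or lower where its CPM differed at least 2-fold, with 1 CPM added to both sides.

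Red cells arise from a progenitor that also gives rise to megakaryocytes, the platelet-forming cells. In that choice *GATA1* is used by both lineages, *KLF1* drives red cell genes, and *FLI1* drives megakaryocyte genes. The globins are made from a pair of gene clusters that are used in order during development. The embryo's first red cells use zeta globin (*HBZ*) and epsilon globin (*HBE1*), fetal red cells use alpha globin (*HBA1* and *HBA2*) with gamma globin (*HBG1* and *HBG2*), and adult red cells use alpha with beta globin (*HBB*) and a little delta globin (*HBD*). On hg19, the alpha-type genes lie on chromosome 16 (*HBZ* at chr16:192727-204502 and *HBA1* at chr16:226679-227521, plus strand) and the beta-type genes on chromosome 11 (*HBB* at chr11:5246694-5250625 and *HBG1* at chr11:5269499-5271087, minus strand). *KLF1* lies at chr19:12995236-12998015 on the minus strand. *HBG1* and *HBG2*, and likewise *HBA1* and *HBA2*, are near-identical copies, so the split of reads within either pair is uncertain, and the annotated spans of *HBG2* (chr11:5274418-5526835) and *HBE1* (chr11:5289575-5526882) overlap.

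The 3 promoters below are those of the looked-up genes in which a GATA word was found, as described after them. They are of *KLF1*, the marker that did not choose the cells, *ALAS2*, the red cell enzyme that starts heme synthesis, and *HBD*, the delta globin gene. Each is the 250 bases before the gene's start from RefSeq on GRCh38.p14, minus strand, written 5′ to 3′. Capitals mark the GATA letters AGATAA or TGATAA and the letters CACCC, on either strand. *KLF1* is at chr19:12887202-12887451, *ALAS2* at chrX:55030978-55031227 and *HBD* at chr11:5234484-5234733. Of 14 genes looked up (the 10 globin genes, *KLF1*, *ALAS2*, *GATA1* and *PLEK*), 6 were matched. The windows of the other matched genes, *GATA1*, *PLEK* and *HBM*, hold no GATA word, and each holds CACCC on at least 1 strand.
KLF1: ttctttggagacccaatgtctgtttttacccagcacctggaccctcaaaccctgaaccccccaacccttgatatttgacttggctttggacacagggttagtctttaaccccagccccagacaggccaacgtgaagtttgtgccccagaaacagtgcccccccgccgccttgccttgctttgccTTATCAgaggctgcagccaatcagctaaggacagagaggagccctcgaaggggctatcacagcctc
ALAS2: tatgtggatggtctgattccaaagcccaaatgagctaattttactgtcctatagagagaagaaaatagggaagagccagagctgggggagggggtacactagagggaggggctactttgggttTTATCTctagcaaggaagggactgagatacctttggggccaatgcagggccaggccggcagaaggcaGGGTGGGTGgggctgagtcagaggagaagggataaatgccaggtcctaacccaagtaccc
HBD: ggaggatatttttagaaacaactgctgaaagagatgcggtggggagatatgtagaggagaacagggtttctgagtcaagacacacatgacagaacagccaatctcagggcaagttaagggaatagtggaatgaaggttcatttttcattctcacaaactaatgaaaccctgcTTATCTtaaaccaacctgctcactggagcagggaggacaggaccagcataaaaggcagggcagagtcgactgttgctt

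Counted back from the start, and all on the strand opposite to the one printed, so that the capitals show their reverse complements, the *KLF1* window holds TGATAA from -66 to -61, the *HBD* window holds AGATAA from -78 to -73, and the *ALAS2* window holds AGATAA from -127 to -122 and a pair of overlapping CACCC matches from -60 to -52. Over 35116 RefSeq promoters of the same length, 9.17% held AGATAA, 6.66% held TGATAA and 54.7% held CACCC on either strand. Either GATA word was in 14.6%, and a GATA word together with CACCC was in 5.88%. The letters CCAAT (32.0% of promoters) occur in all 3 windows and ATAAA (32.7%) in those of *ALAS2* and *HBD*. These matches describe letters only.

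The members held 4391117 UMIs, with a median of 19976 per cell against 18255.5 in the other 7340 kept cells, and a median mitochondrial share of 13.8% against 13.1%. Scrublet, which scores droplets for resemblance to simulated doublets, marked none of them. The globin UMIs of a member ran from 20 to 3816 with a median of 124, which was 0.588% of its UMIs at the median. Membership depended on the limit, at 3.46% of kept cells with at least 10 globin UMIs and 2.21% with at least 40, against 2.78% with 20. There were 26 kept cells with 15 to 19 globin UMIs and 8 members with 20 to 24, and *KLF1* was at 39.3 CPM in the former and 86.1 CPM in the latter. *PLEK*, a gene of platelets and leukocytes, was at 629 and 682 CPM. Of the 7258 kept cells under 20 globin UMIs, 66.1% held none and the 99th percentile was 8 UMIs. There were 644 kept cells with at least 10 UMIs of the macrophage complement genes *C1QA*, *C1QB* and *C1QC*, members left out. Leaving members out limits the globin of these cells, so their globin is no independent measure of stray globin RNA. In them *HBG2* was at 11.3 CPM and *HBG1* at 23.2 CPM. The highest of these cells held 102 globin UMIs, and was no member because it was past the chemokine limit.

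The label of erythroid cells was checked against *KLF1*, the only marker that did not choose the cells. It was at 127 CPM (117 to 138) in members and 9.97 CPM (9.45 to 10.5) in other kept cells, a ratio of 12.8. Of the members 57.6% had a *KLF1* UMI (50.6 to 64.4%), against 1.86% of the C1Q cells, whose median depth was 13489.5 UMIs. With every cell thinned to 5000 UMIs and 1 member left out as shallower, the shares were 35.9% and 0.624%. Thus *KLF1* was high in the members summed together, while 89 of 210 held no UMI of it and megakaryocyte genes were also higher in members. The cells are therefore called globin-expressing cells.

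Gamma globin made up most of the beta-type RNA and zeta globin most of the alpha-type RNA. *HBG2* was at 8946 CPM and *HBG1* at 4560 CPM, against 92.0 and 48.1 CPM in other kept cells. Those other cells include 82 past both the globin and the chemokine limit and 26 past the chemokine limit alone. Without them *HBG2* was at 13.2 CPM and *HBG1* at 9.39 CPM. In members *HBZ* was at 3176 CPM, *HBE1* at 1106 CPM, *HBA1* at 489 CPM and *HBA2* at 143 CPM. Of *HBE1*, *HBG1* and *HBG2* together, gamma was 92.4% and epsilon 7.57%. Of *HBZ*, *HBA1* and *HBA2* together, zeta was 83.4%. The alpha-type genes gave 20.7% of the UMIs of all 6, and 61 of 210 cells had no alpha-type UMI at all.

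Epsilon globin was unevenly spread. Of 200 cells with at least 20 UMIs of *HBE1*, *HBG1* and *HBG2*, 128 had no *HBE1* UMI, and in 11 it was over 50% of them. Those 11 held 79.3% of all *HBE1* UMIs. The cell with the most globin, under hashtag 0254, had 1767 of the 4858 *HBE1* UMIs beside 978 of *HBG2* and 188 of *HBG1*. Another, under hashtag 0253, had 224 UMIs of *HBE1* and none of gamma. Without the cell richest in *HBE1*, the pooled epsilon share was 5.05%.

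Zeta globin was the main alpha-type gene in most cells that could be read. Among the 67 cells with at least 20 alpha-type UMIs, the median zeta share was 87.1%, 57 cells were above 50%, and the lowest cell had none. Of the 61 members without any alpha-type UMI, 37 were in the lowest tercile of globin content.

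*HBG1* was 33.8% of gamma UMIs over all members, with a median of 31.6% over the 191 cells with at least 20 gamma UMIs. In 26 of these cells *HBG1* was under 10% of gamma, and in 3 it was over 90%. The assignment of reads between these copies was not tested.

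Globin genes that did not choose the cells had their own pattern. *HBD*, the delta chain, was at 2113 CPM in members and 101 CPM in other kept cells, 20.8-fold higher (20.3 to 21.4). Its UMIs per member ran from 0 to 338 with a median of 25, and 7 members had none. *HBB*, the adult beta chain, was at 29.6 CPM against 0.290 CPM, with 37 members holding a UMI and 1 cell holding 19.2% of them. *HBQ1*, the theta chain, was at 73.8 CPM against 11.7 CPM. *HBM*, the mu chain, had 35 UMIs in 13 members, a ratio of 366 (115 to 1860) to the 3 UMIs of other kept cells. A UMI was found in 203 members for *HBD* and in 130 for *HBQ1*.

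Against all other kept cells, 355 of 8165 measured genes (at least 10 CPM in either group, the 8 choosing genes left out) were at least 2-fold higher in members, or 4.35%, and 488 were at least 2-fold lower, or 5.98%. The median log2 ratio of all of them was -0.13. The lists below are read against those shares as descriptions, since the members were chosen on RNA of the same cells and there is 1 library. At 50 CPM or more, 158 of 2956 genes were higher and 111 were lower, so the balance turned with that limit.

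Among erythroid transcription factors, 6 of 18 measured genes were higher and 1 was lower, with a median log2 ratio of 0.71. Besides *KLF1* these were *GATA1* at 294 CPM against 56.4 CPM, *TAL1*, a partner of GATA1, at 124 against 39.7 CPM, *LMO2*, the adaptor between them, at 96.6 against 29.2 CPM, the repressor *GFI1B* at 77.4 against 23.6 CPM, and *NFE2* at 182 against 80.7 CPM. Of these genes, all but *KLF1* were within 2-fold between members and the 26 cells past the chemokine limit alone. Those cells had *GATA1* at 298, *TAL1* at 181, *LMO2* at 84.4, *GFI1B* at 149 and *NFE2* at 159 CPM, and *KLF1* at 19.6 CPM. *GATA1* had a UMI in 208 of 210 members, as did *LYL1*, the most abundant gene of the list in members, which was within 2-fold at 363 and 183 CPM. *BCL11A*, which silences gamma globin in adult red cells, was the gene that was lower, at 15.5 against 46.4 CPM. *GATA2*, a factor of earlier progenitors and mast cells, was at 128 and 122 CPM. *SOX6* had no UMI in members, which allows up to 0.683 CPM.

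Heme synthesis genes were higher at 5 of 14 measured and lower at none, with a median log2 ratio of 0.55. *ALAS2* had the largest log2 ratio (5.40) of all measured genes outside the choosing ones, at 59.7 CPM (52.7 to 67.3) against 0.436 CPM (0.332 to 0.561), although only 73 members had a UMI. Its log2 ratio was 4.78 without hashtag 0254 and 6.80 with 0.1 CPM added in place of 1. *UROD*, an enzyme midway in the pathway, was at 414 against 134 CPM, and *FECH*, which inserts iron at its end, at 33.2 against 15.7 CPM. *ALAS1*, the enzyme that other tissues use for the first step, was at 24.4 CPM in members and 48.1 CPM in others.

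Iron genes were higher at 4 of 14 measured. They were the transferrin receptors *TFRC* (171 against 68.5 CPM) and *TFR2* (37.8 against 4.71 CPM), the mitochondrial importer *SLC25A37* (174 against 43.8 CPM) and the exporter *SLC40A1* (57.2 against 21.9 CPM). The ferritin chains, which store iron, did not differ 2-fold, with *FTL* at 6135 and 7134 CPM and *FTH1* at 2855 and 2194 CPM in members and others.

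The red cell membrane and skeleton list stood highest of the non-globin red cell lists, with 11 of 15 measured genes higher, 1 lower and a median log2 ratio of 1.62. *ANK1*, which anchors the membrane to its skeleton, was at 48.3 against 1.40 CPM, *GYPB* at 662 against 63.7 CPM, the ammonium channel *RHAG* at 208 against 47.9 CPM and the blood group protease *KEL* at 23.2 against 2.14 CPM. *GYPB* and *GYPE* are related in sequence, so reads may be shared between them. *CD36* was lower, at 1.37 against 19.8 CPM. Some genes of the list were barely seen. *EPB42* had 9 UMIs and the anion exchanger *SLC4A1* none, which allows up to 0.683 CPM.

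Other red cell genes were mixed. Of 19 measured enzymes and protective proteins, 6 were higher and 1 was lower (median log2 ratio 0.39), with *BLVRB*, a biliverdin reductase, at 626 against 89.2 CPM and the peroxidase *GPX1* at 3604 against 1634 CPM. *AHSP*, the chaperone of free alpha globin, had 17 UMIs in 5 members and none in other kept cells, at least 178-fold higher when the others are set at the limit of 3 UMIs that a count of 0 allows. *CA1*, a red cell carbonic anhydrase, was at 10.2 against 0.617 CPM. In the erythropoietin and stem cell factor list only *EPOR*, the erythropoietin receptor, was higher among 15 measured genes, at 19.1 against 5.02 CPM, and *IL3RA* was lower. An *EPOR* UMI was found in 31.9% of members, 38.5% of the 26 cells past the chemokine limit alone and 28.0% of the 82 past both limits. Early erythroid progenitor genes were higher at 6 of 15 (median log2 ratio 0.70) and late erythroid genes at 3 of 14 (0.34). The early count includes *ITGA2B*, which is also on the megakaryocyte list below. Among the early genes *PRKAR2B*, a kinase subunit that platelets also use, was at 281 against 37.4 CPM, *TIMP3* at 630 against 124 CPM and *CNRIP1* at 59.2 against 16.0 CPM. The late genes that were higher were *SELENBP1*, *TSPAN33* and *TRIM58*. *BNIP3L*, which clears mitochondria from ripening red cells, was at 86.5 and 61.3 CPM.

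The 10 genes with the largest ratios to other kept cells, the 8 choosing genes left out, included *ALAS2*, *HBB*, *HBD*, *ANK1* and *KLF1* of the lists above. *THBS1*, a matrix protein that platelets store, was at 322 against 26.3 CPM, and *MYL4*, an embryonic muscle myosin light chain, at 557 against 49.96 CPM with a UMI in 209 of 210 members. The protease *PAPPA* was at 31.0 against 1.82 CPM and *MEGT1* at 38.3 against 2.498 CPM. In the other direction the largest ratios were those of *SPINK2*, a stem and progenitor cell gene (1.82 against 63.3 CPM), *ACY3*, *PRTN3*, *ASGR2*, *C1QC*, *ELANE*, *IGSF6*, *C1QA*, *CLC* and *CD86*. The neutrophil proteases *PRTN3* and *ELANE* were at 59.4 against 1084 CPM and 0.228 against 19.1 CPM, and 1 member held 46.7% of the *PRTN3* UMIs.

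Markers of the other cell types that the pools could hold were read from whole lists. All 14 measured megakaryocyte markers were higher in members, with a median log2 ratio of 2.33, and the list summed to 2337 CPM against 468 CPM without *PF4* and *PPBP*. *PLEK*, its most abundant gene, was at 671 against 116 CPM. The platelet integrin *ITGA2B* was at 288 against 69.0 CPM, its partner *ITGB3* at 55.6 against 4.33 CPM, the von Willebrand receptor subunit *GP9* at 195 against 22.3 CPM, *CMTM5* at 351 against 46.2 CPM, the adhesion receptor *SELP* at 57.2 against 10.3 CPM and the transcription factor *FLI1* at 88.6 against 27.1 CPM. *GP1BB* was listed at 0 and *VWF* had 1 UMI. *PLEK* is also a leukocyte gene, with a UMI in 67.5% of C1Q cells against 84.8% of members, whereas *ITGA2B* was in 94.8% of members and 9.16% of C1Q cells. The part of these megakaryocyte genes in the other differences was not tested.

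Granulocyte and macrophage markers were lower. Of 11 measured neutrophil markers, 10 were lower (median log2 ratio -3.37), with a summed level of 361 CPM against 3146 CPM. *MPO*, the myeloperoxidase, was at 85.9 against 1168 CPM, *SRGN*, the most abundant of the list in members, at 158 against 406 CPM, and *LTF* had no UMI. *LCN2* was the one that was higher, at 10.9 against 1.26 CPM. Eosinophil markers were lower at 5 of 6 measured and summed to 61.7 CPM against 463 CPM. Macrophage markers were lower at 5 of 8 and summed to 243 CPM against 756 CPM, with *CD163* and *MARCO* at 0. Their most abundant gene, *SPP1*, was at 140.3 CPM in members, of which 1 cell under hashtag 0253 held 91.9%.

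Mast and basophil markers did not go one way. *HDC*, which makes histamine, was higher at 167 against 48.6 CPM, while *IL1RL1*, *CLC* and *MS4A3* were lower, and the list summed to 865 CPM against 824 CPM. Its most abundant gene in members was *LMO4*, at 525 against 387 CPM. Stem and multipotent progenitor markers were lower at 5 of 9 measured, although *CD34* itself was at 128 and 116 CPM and *SPN* at 286 and 257 CPM. Among 5 measured lymphoid markers *CD7* (70.6 against 27.9 CPM) and *CD2* (18.9 against 4.01 CPM) were higher and *CD3D*, *CD3E* and *LTB* were lower. *ESAM* was higher of 2 measured endothelial markers, and *ACTC1* was lower of 5 measured stromal markers. The stromal sum of members, 90.6 CPM against 137 CPM, was led by *TAGLN*, of which 1 cell held 92.4%.

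The members did not carry *KLF1* and *PLEK* evenly. With limits of 2 UMIs of *KLF1* and 10 UMIs of *PLEK*, chosen after their values were seen, 79 cells passed for *KLF1* alone, 87 for *PLEK* alone, 11 for both and 33 for neither. The median depths of the first pair of groups were 20216 and 20658 UMIs. Their median globin counts were 421 and 83 UMIs. Because sparse counts leave many cells at 0, the same was read with each cell thinned to 5000 UMIs, where 41 of 209 cells had a UMI of *KLF1* only, 104 of *PLEK* only, 34 of both and 30 of neither. The limits and the depth both differ between these counts.

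The cells that passed for *KLF1* alone and for *PLEK* alone were spread unevenly over hashtags. Under 0252, 0253, 0254 and 0255 there were 15, 14, 37 and 13 for *KLF1* alone. For *PLEK* alone there were 32, 36, 11 and 8. Between these groups, other genes differed in both directions. *ANK1* was at 87.0 and 26.1 CPM, *ALAS2* at 125 and 8.71 CPM and *TFRC* at 306 and 80.0 CPM. *HBZ* was at 7377 and 329 CPM, *HBG2* at 16084 and 3706 CPM and *HDC* at 289.7 and 61.0 CPM. These were all at higher levels beside *KLF1*. In the other direction *ITGA2B* was at 162 and 408 CPM, *GP9* at 50.2 and 334 CPM, *CMTM5* at 148 and 541 CPM and *SELP* at 4.09 and 122 CPM. *PRKAR2B*, of the early erythroid list, was at 162 and 412 CPM. *GATA1*, used by both lineages, was at 248 and 346 CPM, and *HBD* at 1635 and 2703 CPM. Since the 2 groups were cut from *KLF1* and *PLEK* counts of the same cells, these levels are a description.

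To see how the members varied with globin, they were split into terciles of 70 cells by the share of their UMIs from the 6 choosing globins, with the bounds at 0.358% and 1.15%. Their median globin counts were 34.5, 127 and 731 UMIs. Of 5565 genes measured at 20 CPM or more in either outer tercile, 61 were at least 2-fold higher in the highest tercile, or 1.1%, and 97 were at least 2-fold lower, or 1.74%. The median log2 ratio of those genes was -0.13. Without hashtag 0252 the counts were 118 and 320, and without 0253 the second was 188. With cells thinned to 5000 UMIs they were 333 and 552, and with 40 globin UMIs or more 97 and 196. With no chemokine limit they were 52 and 36, so that fewer genes were lower than higher.

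*KLF1* and *ALAS2* were at least 2-fold higher in the highest tercile. From the lowest to the highest tercile *KLF1* was at 69.2, 83.4 and 229 CPM, with a highest-to-lowest ratio of 3.31 (2.64 to 4.17). *ALAS2* was at 11.5, 11.7 and 155 CPM, a ratio of 13.5 (8.23 to 23.5), so that the lower and middle terciles were alike and the highest stood apart. The share of cells with an *ALAS2* UMI was 18.6%, 14.3% and 71.4%, and after thinning 5.71%, 4.29% and 46.4%, against 0.311% of C1Q cells before and 0.312% after it. For *KLF1* these shares were 47.1%, 52.9% and 72.9%.

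By list, 3 of 17 measured erythroid transcription factors were at least 2-fold higher in the highest tercile (*KLF1*, *LMO2* and *KLF3*), as were 4 of 11 heme synthesis genes, 3 of 11 iron genes, 4 of 14 membrane genes, 4 of 14 early erythroid genes, 1 of 15 enzymes and 1 of 13 late erythroid genes, and none of these lists held a gene that was lower. The median log2 ratio was -0.06 for the transcription factors, 0.05 for the enzymes and -0.21 for the late genes. *TFRC*, which takes up transferrin-bound iron, was at 109, 116 and 288 CPM. *BLVRB* was at 328, 503 and 1048 CPM, *ANK1* at 21.7, 34.5 and 88.6 CPM, *FECH* at 15.6, 23.4 and 60.7 CPM and the growth regulator *MYC* at 94.3, 119 and 246 CPM. *APOE* was at 62.4, 82.7 and 359 CPM and *APOC1* at 71.3, 86.2 and 279 CPM, and in C1Q cells, where macrophages use both, they were at 415 and 293 CPM. Macrophage markers summed to 113, 127 and 488 CPM over the terciles, and *SPP1* gave 394 CPM of the last, nearly all from the single cell described above, which held 566 *SPP1* UMIs, no *KLF1* UMI and 4.88% of the members' *APOE* UMIs. Other genes with the largest ratios, named after their values were seen, were *A2M*, at 0, 0.689 and 35.5 CPM with 94.3% from 1 cell, *CTSL*, at 8.14, 11.03 and 53.9 CPM, and *RNASE1*, at 4.75, 6.20 and 32.7 CPM. Their part in the other tercile differences was not tested. *GATA1* differed by less than 2-fold, at 296, 314 and 272 CPM.

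The make-up of the globins by tercile is a description, since the same 6 genes set the terciles, and cells with few globin UMIs can miss a less abundant type. Alpha-type UMIs were 7.60%, 10.2% and 22.7% of the 6 globins from the lowest to the highest tercile, and 37, 20 and 4 cells had none. Zeta made up 79.6%, 78.6% and 83.8% of alpha-type UMIs, and epsilon 6.55%, 5.39% and 7.97% of *HBE1*, *HBG1* and *HBG2*. *HBQ1* was at 36.6, 57.2 and 127 CPM, and all 35 UMIs of *HBM* were in the highest tercile. *HBD* was at 1830.2, 2278 and 2235 CPM, with medians of 26, 27 and 18 UMIs per cell, and cells under 5 UMIs numbered 5, 3 and 17. Of the 25 members under 5 *HBD* UMIs, 17 were thus in the highest tercile.

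Of 13 measured megakaryocyte genes, 1 (*CLEC1B*) was at least 2-fold lower in the highest tercile and none was higher, with a median log2 ratio of -0.78. The list summed to 2567, 2874 and 1575 CPM. *PLEK* was at 757, 869 and 388 CPM, *CMTM5* at 378, 430.1 and 245 CPM, *ITGA2B* at 282, 341 and 241 CPM and *GP9* at 184, 249 and 152 CPM. The highest-to-lowest log2 ratio of *PLEK*, -0.96, was -2.33 without hashtag 0252, -0.29 without 0254 and -2.07 with members of 40 globin UMIs or more. Within hashtags, *GP9* went from 193 to 221 CPM under 0252, 247 to 275 CPM under 0253, 137 to 68.9 CPM under 0254 and 112 to 73.5 CPM under 0255, and *ITGA2B* from 249.77 to 388 CPM under 0252, 299.6 to 290.0 CPM under 0253, 316 to 173 CPM under 0254 and 275 to 161 CPM under 0255, so the direction was not shared by all hashtags.

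Because hashtags were unevenly spread over the terciles, the lowest and highest tercile were also compared within each hashtag. *KLF1* went from 72.2 to 105 CPM under 0252, 42.8 to 184 CPM under 0253, 109.9 to 318 CPM under 0254 and 58.3 to 216 CPM under 0255. In the middle tercile it was at 28.8 CPM under 0253, 129 CPM under 0254 and 550 CPM under 0255. The last value (385 to 761 CPM) came from 3 cells and was above that of the highest tercile. *ALAS2* went from 3.90 to 35.0 CPM under 0252, 4.75 to 131 CPM under 0253, 26.6 to 229 CPM under 0254 and 20.8 to 142 CPM under 0255. *ALAS2* passed 2-fold under all 4 hashtags and *KLF1* under all but 0252, where its intervals were 50.8 to 99.5 and 69.1 to 153 CPM and the middle tercile was at 47.2 CPM. *PLEK* went from 632 to 788 CPM under 0252, 1001 to 668 CPM under 0253, 669 to 82.3 CPM under 0254 and 708 to 239 CPM under 0255. The difference passed 2-fold under 0254 and 0255, and under 0252 the highest tercile had the greater value, with overlapping intervals (565 to 705 and 684 to 905 CPM).

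Cells with platelet chemokines were compared next, since members shared the megakaryocyte genes with them. There were 26 kept cells with at least 10 UMIs of *PF4* and *PPBP* and fewer than 20 globin UMIs, with 509442 UMIs in all, and 82 cells past both limits. Members differed from the 26 at least 2-fold for 454 of 7927 measured genes that were higher, or 5.73%, and 411 that were lower, or 5.18%, counts that rest on few cells. Without hashtag 0252 they were 927 and 875, and without 0253 the first was 749. With cells thinned to 5000 UMIs they were 1202 and 1069, and with no chemokine limit the second was 252. Erythroid transcription factors were higher at 3 of 18, heme genes at 3 of 13, iron genes at 2 of 14, membrane genes at 5 of 14, early erythroid genes at 5 of 15 and late erythroid genes at 2 of 14, with none lower. Red cell enzymes were higher at 2 and lower at 1 of 18, and erythropoietin and stem cell factor genes were higher at none and lower at 2 of 15. *KLF1* was at 127 and 19.6 CPM in members and in the 26 cells, and *ALAS2* was at 59.7 CPM with no UMI in the 26 cells. Megakaryocyte markers were lower at 6 of 15 and summed to 2337 CPM against 4299 CPM. *HBD* and *GATA1* were within 2-fold, at 2113 and 2212 CPM and at 294 and 298 CPM.

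The genes with the largest ratios in that comparison were, besides *ALAS2*, the retinal dehydrogenase *ALDH1A1* (27.8 and 0 CPM), *WNT5B*, *KIF20A*, *SMAD6*, *STIL*, *COL1A1*, *DHRS9* (152 and 9.81 CPM), *HOXB2* and *IGFBP5*. Of *COL1A1* UMIs in members 87.5% and of *IGFBP5* UMIs 72.2% came from 1 cell. Among those lower in members were the neurotrophin *BDNF*, which platelets carry (1.14 and 55.0 CPM), *CXCL1*, *PTN*, *C1QC*, *CLDN5*, *ADAP2*, *VCAN*, *PTGER3*, *CSTA* and *IGSF6*. Of 51 measured G2/M genes 17 were higher in members and none was lower. In the 82 cells past both limits *KLF1* was at 6.61 CPM, *PLEK* at 1417 CPM and *HBD* at 2060.2 CPM, and 8 of the 82 had a *KLF1* UMI. Their *HBG2* level was 6499.6 CPM, against 8946 CPM in members.

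Across hashtags, members were 3.09% of kept cells under 0252 (2.40 to 3.91%, 66 of 2136), 3.16% under 0253 (2.43 to 4.02%, 63 of 1996), 3.03% under 0254 (2.30 to 3.92%, 56 of 1847) and 1.59% under 0255 (1.03 to 2.34%, 25 of 1571). The first 3 shares lay within the intervals of each other, and the interval of 0255 lay below those of 0253 and 0252 but overlapped that of 0254. The other hashtags together were at 3.09% (2.67 to 3.56%), above the interval of 0255. The intervals also lay apart with at least 10 or at least 40 globin UMIs and with no chemokine limit. The same held with no limit on UMIs or genes, without Scrublet doublets and with cells thinned to 5000 UMIs. At 40 or more the shares were 1.15% (0.680 to 1.80%) under 0255 and 2.49% (2.11 to 2.92%) in the others. With members chosen at 0.1% of UMIs from the 6 globins, however, the shares were 1.97% (1.34 to 2.79%) under 0255 and 3.18% (2.75 to 3.65%) in the others, with overlapping intervals. At a mitochondrial limit of 10%, members were 0.951% of all kept cells. The shares were then 0.725% (0.018 to 3.97%) under 0255 and 1.003% (0.369 to 2.17%) in the others, again with overlapping intervals. Kept cells past both the globin and the chemokine limit made a different order, at 1.498% under 0252, 1.85% under 0253, 0.325% under 0254 and 0.446% under 0255. Each hashtag is 1 pool, so spread between pools of one surface was not measured.

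The members themselves differed between hashtags. Their globin UMIs had medians of 93 (range 20 to 1346) under 0252, 123 (20 to 2923) under 0253, 245.5 (25 to 3816) under 0254 and 72 (27 to 2768) under 0255. Median depths were 20297.5, 19207, 21161.5 and 19858 UMIs. The highest tercile of globin content took 12 of 66, 22 of 63, 26 of 56 and 10 of 25 members in the same order. The globin ranges overlapped widely.

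Of 2611 genes measured at 50 CPM or more over all members, 123 differed at least 2-fold between the highest and the lowest hashtag, or 4.71%. That count was 195 of 2593 with members of 40 globin UMIs or more and 511 of 2613 with cells thinned to 5000 UMIs. Of the 123 genes, 51 were highest under 0253 and 38 under 0252, and 58 were lowest under 0255, which had the fewest members. *KLF1* was at 66.9, 83.4, 216 and 185 CPM under 0252, 0253, 0254 and 0255. *ALAS2* was at 9.25, 49.4, 119.7 and 78.3 CPM, *TFRC* at 105, 129.6, 261 and 239 CPM, *APOE* at 47.7, 146, 297 and 241 CPM, *HDC* at 119.5, 112, 250.04 and 233 CPM and *LMO4* at 289, 327, 788 and 1013 CPM in that order. These 6 were higher under both 0254 and 0255 than under either of 0252 and 0253. *PLEK* was at 795, 929.9, 371 and 426 CPM and *GPX1* at 4200.1, 4779, 2157 and 2629 CPM, in the opposite direction. Of 11 measured megakaryocyte markers, 10 differed 2-fold, and the list summed to 2825, 3046, 1453 and 1426 CPM. In all other kept cells, which include those past the chemokine limit, the list summed to 582, 552, 366 and 320 CPM. It was thus also higher there under 0252 and 0253. *HBD* was at 2110.4, 2319.9, 1959.6 and 1993 CPM and *GATA1* at 314, 319, 259 and 262 CPM, within 2-fold.

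Genes with the largest ratio between hashtags were *SPP1*, *ALAS2*, *CALD1*, *APOC1* and *HEMGN*, of which *SPP1* came from 1 cell as given above. *APOC1* was at 40.6, 85.1, 259 and 304 CPM and *HEMGN*, a red cell nuclear protein, at 100.3, 82.6, 35.0 and 13.4 CPM. Epsilon made up 17.2%, 4.61%, 7.02% and 2.37% of *HBE1*, *HBG1* and *HBG2* by hashtag, and 10.1%, 3.40%, 0.626% and 1.03% without the cell richest in *HBE1* of each, so that 1 cell decided the value under 0254. Zeta made up 75.2%, 75.8%, 86.9% and 88.1% of alpha-type UMIs.

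Cell cycle genes showed little difference from other kept cells. Of 39 measured S phase genes 1 was lower and none higher (median log2 ratio -0.36), and of 52 G2/M genes 1 was lower and none higher (-0.05). Among 9 measured genes of the embryonic and fetal program, *DLK1*, an imprinted fetal gene, was at 1205 against 359.8 CPM and *MEIS1* was higher, whereas *HMGA2* was lower at 11.8 against 28.7 CPM. Notch pathway genes were measured at 6, of which the target *HES1* was higher at 90.4 against 26.0 CPM and the T cell gene *CD3D* lower at 4.10 against 65.8 CPM. Under the 4 hashtags *HES1* in members was at 87.5, 91.5, 110.0 and 49.7 CPM.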

How the data were processed

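Nonadherent day 5 cells were profiled by droplet-based 3′ single-cell RNA sequencing, with 4 hashtagged pools in 1 library. Per the labels and the file headers, the authors ran Cell Ranger 6.0.1 on hg19 and deposited raw UMI counts for 32738 genes and 10836 barcodes, with a call of 1 hashtag, doublet or negative for each barcode. The study filtered empty droplets and doublets by antibody counts from Cell Ranger. The rule behind each call is not given in the sources used here, and the calls were used as deposited. Gene and hashtag counts came from the same barcodes.

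Cells with 1 hashtag (8488) were kept at up to 36000 gene UMIs, 6000 genes and 18% mitochondrial UMIs. Counts were summed per group and scaled to CPM of 4391117 UMIs in members and 142110950 in all kept cells. A 3′ UMI count is not scaled to gene length, so levels were compared between groups and, for globins only, as shares. Ratios used a pseudocount of 1 CPM and genes of at least 10 CPM in either group (20 for terciles, 50 for hashtags). The report names the choosing genes, *KLF1*, the examples of 23 gene lists (387 of 396 genes found) that were most abundant or had the largest ratio, the 10 genes with the largest ratio in each direction and the 5 with the largest ratio between hashtags. Genes named beyond these, the *KLF1* and *PLEK* limits, and the split of cells by them were chosen after values were seen. The members and the lists were chosen with earlier results of these data known. Scrublet was run with an expected doublet rate of 6%. Motifs were read in RefSeq promoters of GRCh38.p14 and the coordinates of genes in the hg19 annotation, without conversion. The work was done in Python 3.11.15 with scanpy 1.11.5 for Scrublet, scipy 1.17.1 for intervals, pandas 2.3.3 and numpy 2.4.6 for the sums and matplotlib 3.10.9 for plots. The fold calls were tested on simulated data, and the outcome is not reported here. Alternatives changed the limits on globin, chemokine, mitochondrial and total UMIs, depth, scaling, pseudocount, low-level filter, hashtags and comparison cells. Promoters of the globin genes other than *HBD* and *HBM*, and globin proteins, were not used here. A few genes of the lists are counted but not reported by name.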

Additional observations from a re-analysis of the deposited data

Results flagged for a closer look

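Barcodes without a call for 1 hashtag were outside the comparisons, and some met the globin rule. Of 809 barcodes called negative and within the limits on UMIs, genes and mitochondrial share, 18 met it, or 2.22% (1.32 to 3.49%), with a median of 150 globin UMIs, *KLF1* at 281 CPM and *PLEK* at 508 CPM. Of 834 barcodes called doublets and within the same limits, 25 met it, or 3.00% (1.95 to 4.39%), with a median of 204 globin UMIs, *KLF1* at 135 CPM and *PLEK* at 488 CPM. Both shares lay near the 2.78% of kept cells, and the median depths were 13630.5 and 25718 UMIs.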

How the results depend on the processing

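The labels give no replicate numbers, and no paired test was run. Terciles were set side by side within each hashtag as values only. Under the alternatives, summary values stayed within their interval, or counts within 1.5 times, in 118 cases and moved further in 43. Log2 ratios of single genes were judged by how far they moved from the reported value, set against the width of its interval. They stayed close in 114 cases and moved further in 46, and none of them turned its direction. The balance of higher and lower counts turned under some alternatives, given here and below. Platelet-chemokine counts were 318 higher and 355 lower with no limit on UMIs or genes, and 417 and 467 without hashtag 0254. Members were 3.46% of kept cells at 10 globin UMIs or more (hashtags 0252 to 0254 together 3.83%), 2.21% at 40 or more (2.49%), 3.87% with no chemokine limit (4.35%) and 0.951% at a mitochondrial limit of 10% (1.003%, and 0.725% under 0255), where too few members remained for gene counts, which were not run. With 40 globin UMIs or more, tercile counts were 97 higher and 196 lower, and 195 genes differed between hashtags. With no chemokine limit, epsilon was 8.63%, zeta 79.7% and 252 genes were lower than in platelet-chemokine cells. Tercile counts were then 52 higher and 36 lower. Thinned to 5000 UMIs, epsilon was 6.81%, zeta 84.8%, platelet-chemokine counts 1202 and 1069, tercile counts 333 and 552, the hashtag count 511 and the tercile log2 ratio of *ALAS2* 5.53 in place of 3.64. At 50 CPM or more, 158 genes were higher and 111 lower in members. Without the member richest in globin, an alternative chosen after seeing the data, epsilon was 5.05%. Leaving out each hashtag in turn gave epsilon 5.53 to 8.71%, zeta 79.8 to 86.1%, *HBG1* 32.8 to 34.6% of gamma, platelet-chemokine counts 417 to 927 higher and 467 to 875 lower, and tercile counts 66 to 118 higher and 111 to 320 lower. The causes were not tested. Depth limits genes near 0.683 CPM, the level that a count of 0 in members allows. Values that rest on 25 members under 0255 or on 26 platelet-chemokine cells come from few cells.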
